A study of Arabidopsis thaliana with 18 samples.

Results

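BZIP60 (AT1G42990, chromosome 1), ATERDJ2B (AT4G21180, chromosome 4) and Hop3 (AT4G12400, chromosome 4) are 3 Arabidopsis thaliana genes that serve protein folding under stress. Each was read by 1 probe set that the platform's gene table assigns to that gene alone, so 3 of the 22810 probe sets on the array are described here. The genes were chosen from earlier results on the same 18 arrays. Their levels and differences are therefore given as a description, with no test. The rosettes came from Col-0 wild-type plants aged 20 days, grown in continuous light at 22 °C, and stood for 1 h in a soundproof chamber. The 6 groups were silence and sound of 250, 500, 1000, 2000 or 3000 Hz at 80 dB, each with 3 arrays labelled as biological replicates. Tissue was harvested directly after the exposure, and all frequencies share the same 3 silent control arrays.

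When unfolded proteins build up in the endoplasmic reticulum (ER), plant cells raise the transcription of chaperone genes, which is called the unfolded protein response. BZIP60 encodes one of its transcription factors. The sensor IRE1 splices the BZIP60 mRNA so that the protein loses its membrane anchor and enters the nucleus, and the BZIP60 transcript itself is known to accumulate under ER stress. ATERDJ2B encodes an ER membrane J-domain protein related to Sec63, which works with the ER HSP70 called BiP where new proteins are moved into the ER. Hop3 encodes an HSP70-HSP90 organizing protein, a cochaperone that hands client proteins between the HSP70 and HSP90 chaperones, and it is known as a heat- and ER-stress-responsive member of its family. The array values hold no separate signal for the spliced form of BZIP60.

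Signals are log2 values, on which a difference of 1 is a 2-fold change. The array medians lay between 6.51 and 6.63. RCA, the Rubisco activase gene and the single rosette marker of 11 that the gene table named, stood at 14.09 to 14.32 on all 18 arrays. Of the pollen and flower markers 2 of 8 were named, ANX1 at 4.06 to 4.49 and AT5G45880 at 4.59 to 5.15. The 3 named root markers of 12 were EXPA7 at 5.08 to 5.46, AT5G17820 at 3.85 to 4.27 and PYK10 at 4.14 to 8.67, so PYK10 alone of the 3 varied widely. The means of EXPA7 and AT5G17820 stood at percentiles 34.6 and 12.8 of the probe sets, which limits what their steadiness can show. The control arrays differed from each other by at least 2-fold at 731 to 1308 probe sets, against 68 to 412 for pairs of arrays within a sound group. The poly-A spike controls, added before labelling, averaged 5.99 to 6.51 on the 2000 and 3000 Hz arrays and 5.37 to 5.59 on all others. In a bulk rosette sample, fewer cells of a type and less RNA per cell cannot be told apart.

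BZIP60 had its lowest group mean in silence and its highest at 500 Hz. Its log2 signals were 9.01, 9.52 and 9.77 in silence, 10.00, 9.74 and 10.02 at 250 Hz, and 10.02, 10.96 and 10.26 at 500 Hz. They were 10.54, 10.15 and 9.87 at 1000 Hz, 9.58, 9.67 and 9.83 at 2000 Hz, and 9.79, 10.27 and 9.96 at 3000 Hz. Every array of 500, 1000 and 3000 Hz lay above all 3 silent arrays, as did 2 of 3 arrays at 250 Hz and 1 of 3 at 2000 Hz. The highest single value came from 500 Hz replicate 2 and the lowest from control replicate 1.

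The mean of BZIP60 was 10.41 ± 0.488 at 500 Hz, against 9.43 ± 0.387 in silence (SD, n = 3 each), a difference of 0.98 ± 0.234 (SE of the limma fit over all arrays), or 1.97-fold. At 1000 Hz the mean of 10.19 ± 0.337 stood 0.75 above silence (1.69-fold), and at 3000 Hz the mean of 10.01 ± 0.243 stood 0.57 above it (1.49-fold), with the same SE. The pooled SD of arrays within a group was 0.317 for BZIP60. At 250 Hz the mean was 9.92 ± 0.156, a difference of 0.49 from silence. The smallest difference, 0.26 (1.20-fold), was at 2000 Hz, where the mean of 9.69 ± 0.127 lay within the spread of the silent arrays.

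Single arrays moved these differences. Leaving out 1 array at a time gave 0.707 to 1.18 at 500 Hz, the lowest without 500 Hz replicate 2. The ranges were 0.542 to 0.922 at 1000 Hz, 0.362 to 0.742 at 3000 Hz and 0.275 to 0.655 at 250 Hz. At 2000 Hz the range was 0.0483 to 0.428, the lowest without control replicate 1. That array also had the highest PYK10 signal of all, at 8.67, whose part in the BZIP60 values was not tested. For scale, all 3 arrays lay above all 3 silent arrays at 10.3% of probe sets at 500 Hz, 7.71% at 1000 Hz and 10.1% at 3000 Hz.

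Among the frequencies, the 2000 Hz arrays of BZIP60 stood apart from those of 500 and 1000 Hz. The mean at 2000 Hz was 0.72 lower than at 500 Hz and 0.49 lower than at 1000 Hz, and in neither pair did the arrays overlap. All 3 arrays of 500 Hz were above those of 2000 Hz at 12.2% of probe sets, and all 3 of 1000 Hz were above those of 2000 Hz at 15.9%. In descending order the means ran 500, 1000, 3000, 250 and 2000 Hz and then silence. Neighbours in that order overlapped and differed by less than the pooled SD.

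**Figure D1:**
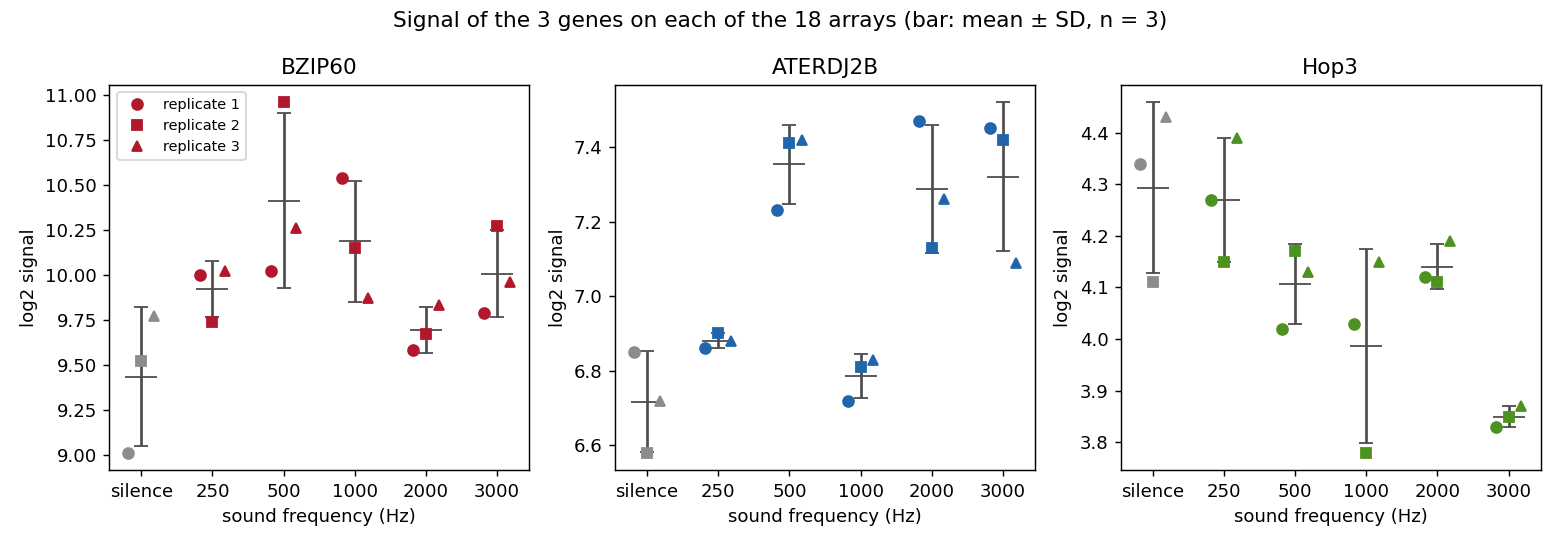
Log2 signal (vertical axis) of BZIP60, ATERDJ2B and Hop3 in silence and at 5 sound frequencies in Hz (horizontal axis), with 1 point per array, the marker shape giving the replicate number, and the bar and whiskers giving the group mean and SD of 3 arrays. BZIP60 is highest at 500 Hz and lowest in silence, ATERDJ2B splits into 9 arrays at 7.09 or above (500, 2000 and 3000 Hz) and 9 at 6.90 or below, and the 3000 Hz arrays of Hop3 lie at 3.83 to 3.87.

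ATERDJ2B stood at 2 levels. Its log2 signals were 6.85, 6.58 and 6.72 in silence, 6.86, 6.90 and 6.88 at 250 Hz, and 7.23, 7.41 and 7.42 at 500 Hz. They were 6.72, 6.81 and 6.83 at 1000 Hz, 7.47, 7.13 and 7.26 at 2000 Hz, and 7.45, 7.42 and 7.09 at 3000 Hz. Thus the 9 arrays of 500, 2000 and 3000 Hz covered 7.09 to 7.47 and the 9 arrays of silence, 250 and 1000 Hz covered 6.58 to 6.90, with a gap of 0.19 between them. The same 9 arrays lay above the same other 9 at 24 of 22746 probe sets (0.106%), a grouping that was read off ATERDJ2B after its values had been seen.

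The mean of ATERDJ2B at 500 Hz was 7.35 ± 0.107, against 6.72 ± 0.135 in silence (SD, n = 3 each), a difference of 0.64 ± 0.115 (SE), or 1.55-fold. It was 7.29 ± 0.172 at 2000 Hz, which was 0.57 above silence (1.48-fold), and 7.32 ± 0.200 at 3000 Hz, which was 0.60 above silence (1.52-fold). The pooled SD of ATERDJ2B within groups was 0.131. With 1 array left out at a time they covered 0.568 to 0.703 at 500 Hz, 0.478 to 0.648 at 2000 Hz and 0.535 to 0.718 at 3000 Hz.

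At 250 Hz the mean of ATERDJ2B was 6.88 ± 0.020, only 0.16 above silence, and at 1000 Hz it was 6.79 ± 0.0586, a difference of 0.07. All 3 arrays at 1000 Hz lay within the range of the silent ones. The 250 Hz arrays all lay just above the highest silent value (6.86 against 6.85), as at 6.05% of all probe sets. All 3 arrays of 2000 Hz lay above all silent arrays at 7.5% of probe sets.

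In order, the ATERDJ2B means ran 500, 3000, 2000, 250 and 1000 Hz and then silence. The arrays of 500, 3000 and 2000 Hz overlapped, and the gap below them, 0.41 between 2000 and 250 Hz, was the single step larger than the pooled SD. The 250 Hz arrays were all above the 1000 Hz arrays, as at 10% of probe sets, but by a mean of only 0.09. The spike controls were also higher on the 2000 and 3000 Hz arrays, at group means of 6.343 and 6.185 against 5.457 in silence. For these frequencies against silence, the sound and the higher spike signal cannot be told apart. At 500 Hz the spike mean was 5.525 and ATERDJ2B stood 0.64 above silence. The part of the spike signal in the ATERDJ2B values was not tested.

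**Figure D2:**
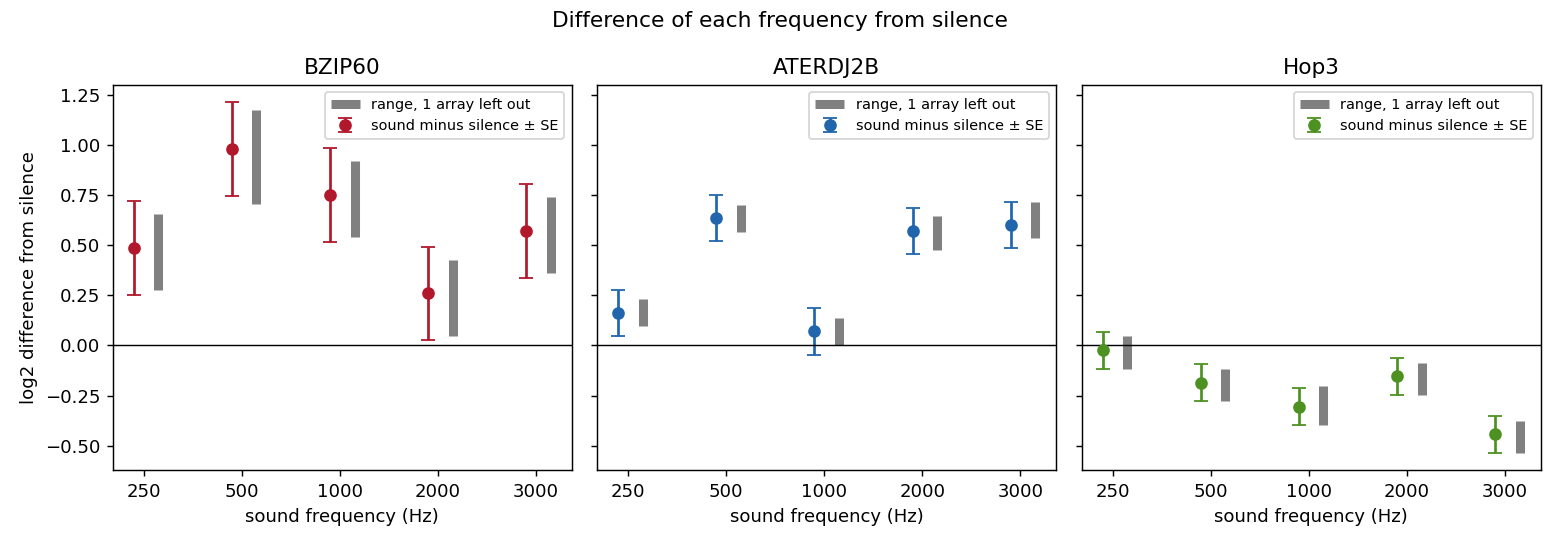
Log2 difference of each sound frequency (horizontal axis, Hz) from silence for BZIP60, ATERDJ2B and Hop3, with points and whiskers for the difference and its SE in the limma fit, and grey bars for the range obtained when any 1 of the 6 arrays compared is left out. The differences of ATERDJ2B at 500, 2000 and 3000 Hz are 0.64, 0.57 and 0.60, those of BZIP60 are 0.98 at 500 Hz and 0.26 at 2000 Hz, and Hop3 reaches -0.44 at 3000 Hz.

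Hop3 had its highest group mean in silence and its lowest at 3000 Hz. Its log2 signals were 4.34, 4.11 and 4.43 in silence, 4.27, 4.15 and 4.39 at 250 Hz, and 4.02, 4.17 and 4.13 at 500 Hz. They were 4.03, 3.78 and 4.15 at 1000 Hz, 4.12, 4.11 and 4.19 at 2000 Hz, and 3.83, 3.85 and 3.87 at 3000 Hz. The 3000 Hz arrays were the only group of which all 3 lay below every silent array, as they did at 12.6% of probe sets. At 1000 Hz 2 of 3 arrays did so, at 500 Hz 1 of 3, and at 250 and 2000 Hz 0 of 3. All 3 arrays lay below every silent array at 7.37%, 11.7%, 6.41% and 9.09% of probe sets at 250, 500, 1000 and 2000 Hz. The shares of probe sets with only 1 or 2 of 3 arrays below were not counted. The lowest of all 18 Hop3 values belonged to 1000 Hz replicate 2.

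The mean of Hop3 was 3.85 ± 0.020 at 3000 Hz, against 4.29 ± 0.165 in silence (SD, n = 3 each), a difference of -0.44 ± 0.0923 (SE), or 0.735 times the silent level. Leaving out 1 array gave -0.535 to -0.375. At 1000 Hz the mean of 3.99 ± 0.189 lay 0.31 lower than silence, and at 500 Hz the mean of 4.11 ± 0.0777 lay 0.19 lower. The remaining differences were -0.15 at 2000 Hz and -0.02 at 250 Hz, and the last changed sign when single arrays were left out (-0.115 to 0.045). The pooled SD of Hop3 within groups was 0.119. Without control replicate 3 the differences at 500 and 2000 Hz were -0.118 and -0.085, below that spread. Without control replicate 2 they were -0.278 and -0.245. At 1000 Hz leaving out 1 array gave -0.398 to -0.203, the smallest without 1000 Hz replicate 2.

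Between the higher frequencies, Hop3 at 3000 Hz lay 0.29 lower than at 2000 Hz with no overlap of arrays, as at 10.4% of probe sets. It also lay 0.42 lower than at 250 Hz and 0.26 lower than at 500 Hz, and the 3000 and 1000 Hz arrays overlapped. The root gene PYK10 read 7.11, 7.11 and 6.98 at 3000 Hz, against 4.14, 5.41 and 4.94 at 2000 Hz. The dimmer probe sets of EXPA7 and AT5G17820 stayed within 5.20 to 5.29 and 3.87 to 4.05 on these arrays. The excess of 3' over 5' actin signal, which grows as RNA degrades, was 1.61 ± 0.0551 at 3000 Hz, 1.75 ± 0.0862 at 2000 Hz and 1.94 ± 0.0173 in silence (SD, n = 3 each). The part of either in the Hop3 values was not tested. Neighbouring means in the order silence, 250, 2000, 500, 1000 and 3000 Hz all overlapped. The Hop3 probe set was dim. Its mean over all arrays stood at percentile 14.5 of the probe sets, that of BZIP60 at percentile 90.7 and that of ATERDJ2B at percentile 56.3. Signals of different probe sets do not give relative transcript amounts, and the percentiles say only where each lay in the range of brightness.

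The 3 genes did not share a pattern over the frequencies. At 500 Hz BZIP60 and ATERDJ2B both had their highest means, but at 1000 Hz BZIP60 stood 0.75 above silence and ATERDJ2B 0.07, and at 2000 Hz BZIP60 stood 0.26 above silence and ATERDJ2B 0.57. Over the 18 arrays Pearson's r was 0.272 between ATERDJ2B and BZIP60, -0.340 between ATERDJ2B and Hop3, and -0.271 between Hop3 and BZIP60 (Spearman's rho 0.140, -0.230 and -0.235). Over the 15 sound arrays the r values were 0.0157, -0.191 and -0.0407, and within groups they were -0.107, 0.197 and 0.206. These are descriptions over arrays that share their labelling and scaling.

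For each gene, the 5 probe sets with the most similar profile over the 18 arrays were found among 13512 others with a single named gene. BZIP60 ran most closely with ZCF37 (r = 0.950, rho = 0.920), AT3G01830 (r = 0.935), BIK1, a kinase of plant immune signalling (r = 0.927), AT2G32140 (r = 0.922) and AT3G48650 (r = 0.922), which RefSeq lists as a transcribed pseudogene. The median r of all 13512 with BZIP60 was -0.0059. Over the 15 sound arrays alone these 5 had r values of 0.883 to 0.948, and 2 of them were still among the first 5.

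ATERDJ2B ran most closely with AT2G42220 (r = 0.903, rho = 0.915), AT5G57345 (r = 0.871), AT5G35970 (r = 0.870), AT3G46630 (r = 0.855) and AT3G01060 (r = 0.852), with 0.842 to 0.926 over the sound arrays and a median r of -0.0306 over all. Hop3 ran most closely with AT4G30630 (r = 0.890, rho = 0.883), AT3G01850 (r = 0.880), AT5G41350 (r = 0.862), AT2G19790 (r = 0.846) and CCT1, a gene of phosphatidylcholine synthesis (r = 0.845), with 0.780 to 0.875 over the sound arrays and a median r of -0.0508 over all. The 3 sets of 5 held no gene in common and no gene of the protein folding lists. The highest of 13512 r values is high by selection, and the values are descriptive.

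**Figure D3:**
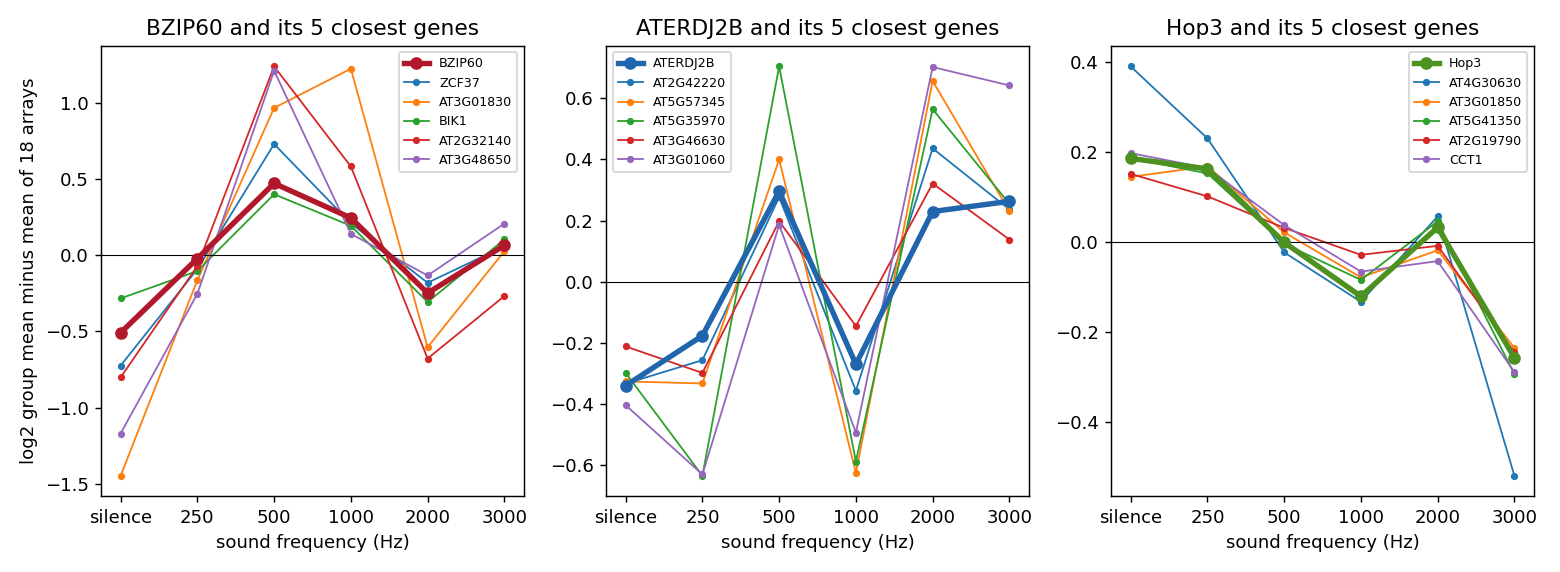
Group mean minus the mean of all 18 arrays, in log2 units (vertical axis), in silence and at each sound frequency in Hz (horizontal axis), for BZIP60, ATERDJ2B and Hop3 (thick lines) and the 5 genes most correlated with each (thin lines). BZIP60 and 4 of its 5 genes are highest at 500 Hz and AT3G01830 at 1000 Hz, the ATERDJ2B set is high at 500, 2000 and 3000 Hz, and the Hop3 set is lowest at 3000 Hz.

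The other genes of protein folding were taken from 8 lists of 116 genes in all, of which the gene table named 37. Without BZIP60, ATERDJ2B and Hop3 these were 34 genes with 37 probe sets, which were tested with limma (adjusted p under 0.05 over 22746 probe sets). BIP1, BIP2, BIP3, IRE1A, IRE1B, ERDJ3A and P58IPK are not among the 37, nor is any protein disulfide isomerase of the 11 listed, and they were not analysed here. At 500 Hz 1 of the 37 probe sets rose and 1 fell, against 4.14% and 4.77% of all probe sets. At 2000 Hz 0 rose and 1 fell (1.62% and 1.27% of all), and at 3000 Hz 1 rose and 0 fell (2.84% and 3.76% of all). In limma 0 passed at 250 Hz (0.0352% rose and 0.00879% fell of all) and 0 at 1000 Hz (0% of all in either direction). An unadjusted p under 0.05 was reached by 5, 7, 2, 9 and 4 of the 37 at 250, 500, 1000, 2000 and 3000 Hz, and by 15.8%, 26.6%, 15.5%, 19.7% and 23.7% of all probe sets. The medians of the 37 log2 differences were -0.003, -0.02, 0.017, -0.067 and -0.007 in the same order of frequencies, beside -0.017, -0.007, 0.013, -0.017 and 0 over all probe sets. At 500 Hz, 17 of the 37 differences were positive.

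Among the 4 other sensors and regulators of the unfolded protein response, S1P fell at 500 Hz. S1P encodes the site-1 protease that releases the ER stress factors bZIP28 and bZIP17 from the membrane. It read 6.30, 6.11 and 6.33 at 500 Hz, against 6.62, 6.44 and 6.78 in silence, a difference of -0.37 ± 0.101 (SE, limma adjusted p = 0.0370). The groups did not overlap, but the call was lost when control replicate 1 or 3, or 500 Hz replicate 2 or 3, was left out (highest adjusted p = 0.158). Of all probe sets, 182, 1285, 2 and 581 were called in these omissions, against 2026 with all arrays. All 3 arrays lay below all silent arrays at 11.7% of probe sets at 500 Hz. S1P also had differences of -0.16, -0.29, -0.26 and -0.32 from silence at 250, 1000, 2000 and 3000 Hz, and none passed. Among the 5 frequencies S1P did not pass limma's F test (adjusted p = 0.504), so its lower signal was not particular to 500 Hz.

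BZIP28, the membrane-bound factor that acts beside bZIP60, differed among the 5 frequencies by limma's F test (adjusted p = 0.0187), as 15.6% of all probe sets did. Its signals were 8.16, 8.39 and 8.58 in silence, 8.36, 8.21 and 8.57 at 250 Hz, and 8.49, 8.78 and 9.12 at 500 Hz. They were 8.95, 8.79 and 8.71 at 1000 Hz, 8.11, 8.03 and 8.28 at 2000 Hz, and 8.23, 8.34 and 8.42 at 3000 Hz. The 500 and 1000 Hz arrays lay high and the 2000 Hz arrays low. Against silence the differences were 0.42 at 500 Hz (adjusted p = 0.0893), 0.44 at 1000 Hz and -0.24 at 2000 Hz, none of which passed. BZIP17, its close relative, had differences of -0.54, -0.30, -0.16, -0.23 and -0.17 at 250, 500, 1000, 2000 and 3000 Hz, and none passed.

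In the J-protein and translocon list, 0 of 9 probe sets beside ATERDJ2B passed in limma at any frequency, with an unadjusted p under 0.05 for 3 at 500 Hz (26.6% of all probe sets), 2 at 2000 Hz (19.7% of all) and 0 at the other frequencies. ATERDJ2A, the paralog of ATERDJ2B, read 8.29, 8.32 and 8.41 at 500 Hz, against 8.80, 8.29 and 8.65 in silence. Its differences from silence were -0.21, -0.24, -0.16, -0.28 and -0.01 at 250, 500, 1000, 2000 and 3000 Hz, so the point estimates had the opposite sign to those of ATERDJ2B. ATERDJ3B, a lumenal ER J-protein gene, had 0.18, 0.11, 0.28, 0.02 and 0.12. The largest difference in the list, 0.79 for AT3G60540 at 500 Hz, had an adjusted p of 0.0710.

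Among the 3 ER lumenal chaperone probe sets, AT5G07340 rose at 3000 Hz. It read 8.02, 7.86 and 7.81 at 3000 Hz, against 7.48, 7.28 and 7.22 in silence, a difference of 0.57 ± 0.121 (SE, limma adjusted p = 0.0180). The call was lost without control replicate 3 or 3000 Hz replicate 1 or 2 (highest adjusted p = 0.0825). The spike controls stood at 6.185 at 3000 Hz against 5.457 in silence, and the 3' excess of actin at 1.61 ± 0.0551 against 1.94 ± 0.0173 (SD, n = 3 each). Their part in the result was not tested. The other named members of the list, the calreticulin gene CRT1b and AT4G16660, had 0.33 and 0.20 at 3000 Hz, and neither passed.

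In ER-associated degradation, which removes misfolded proteins from the ER, 1 of 7 probe sets rose at 500 Hz. This was UBC32, an ER-bound ubiquitin-conjugating enzyme gene known to respond to ER stress. It read 8.82, 9.22 and 8.60 at 500 Hz, against 8.19, 8.33 and 8.37 in silence, a difference of 0.58 ± 0.130 (SE, limma adjusted p = 0.0174). It missed the threshold without control replicate 1 or 500 Hz replicate 2 (highest adjusted p = 0.0812). Of all probe sets, 182 and 2 were called in these omissions, against 2026 with all arrays. The array of 500 Hz replicate 2 was also the highest of BZIP60 and had the highest 3' excess of actin, at 2.30. The part of the latter in the UBC32 values was not tested. The Derlin gene DER2.1 had 0.40 at 500 Hz and 0.53 at 250 Hz, neither of which passed.

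Among 8 cochaperone probe sets beside Hop3, SGT1A fell at 2000 Hz. SGT1A encodes a cochaperone of HSP90 with a role in plant immunity. Its signals were 8.64, 8.72 and 9.00 at 2000 Hz, against 9.49, 9.54 and 9.92 in silence, a difference of -0.86 ± 0.192 (SE, limma adjusted p = 0.0295). At 500 Hz it read 9.69, 10.09 and 10.19 and at 3000 Hz 9.11, 9.24 and 8.99, and among the 5 frequencies it differed with an adjusted p of 0.0065. The call against silence was lost without control replicate 3 or any of the 2000 Hz arrays (highest adjusted p = 0.134), while the difference among frequencies passed with any of the 15 sound arrays left out. All 3 arrays lay below all silent arrays at 9.09% of probe sets at 2000 Hz.

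Hop1 and Hop2, the other genes of the Hop family, did not pass at any frequency. Hop1 had differences of -0.14, -0.32, -0.21, -0.36 and -0.05 from 250 to 3000 Hz in order of frequency, with adjusted p = 0.0811 at 500 Hz and 0.0856 at 2000 Hz. Hop2 had -0.38, -0.16, -0.26, -0.38 and -0.21. At 3000 Hz, where Hop3 was lowest, Hop1 read 8.27, 8.18 and 8.14, against 8.44, 8.06 and 8.23 in silence, so its arrays overlapped.

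At 3000 Hz against 2000 Hz, 1 of the 37 probe sets rose and 0 fell, against 2.34% and 0.827% of all. Their median difference was 0.09, beside -0.003 over all probe sets, and 8 reached an unadjusted p under 0.05 (16% of all). The one that rose was the cochaperone-list gene AT4G02450, at 9.03, 9.12 and 9.09 at 3000 Hz, against 8.62, 8.56 and 8.70 at 2000 Hz (difference 0.45 ± 0.104, limma adjusted p = 0.0293). Although the groups were far apart, the adjusted p missed the threshold when any of these 6 arrays was left out, with values up to 0.118. Of all probe sets, 720 were called with every array kept and 0 to 910 in these omissions. Over the 5 frequencies, 5 of the 37 differed by the F test, a share close to the 15.6% of all probe sets. An unadjusted p under 0.05 was reached in that test by 10 of the 37 (34.3% of all).

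The 4 probe sets named in the heat shock factor and small HSP list were all of small HSPs, with means at percentiles 19.7 to 31.1. The 2 named in the cytosolic HSP90 and HSP70 list were both of HSP70 genes. No heat shock factor or HSP90 gene was among them, so neither was analysed here. The 2 lists had 0 calls in limma. Their unadjusted counts against silence were 0 for the first list at every frequency, and 1, at 2000 Hz, for the second. AT3G09440, of the second list, had widely spread controls, at 10.88, 7.97 and 9.95, and differences of -0.89, -0.62, -0.68, -1.20 and 0.12 from silence.

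**Figure D4:**
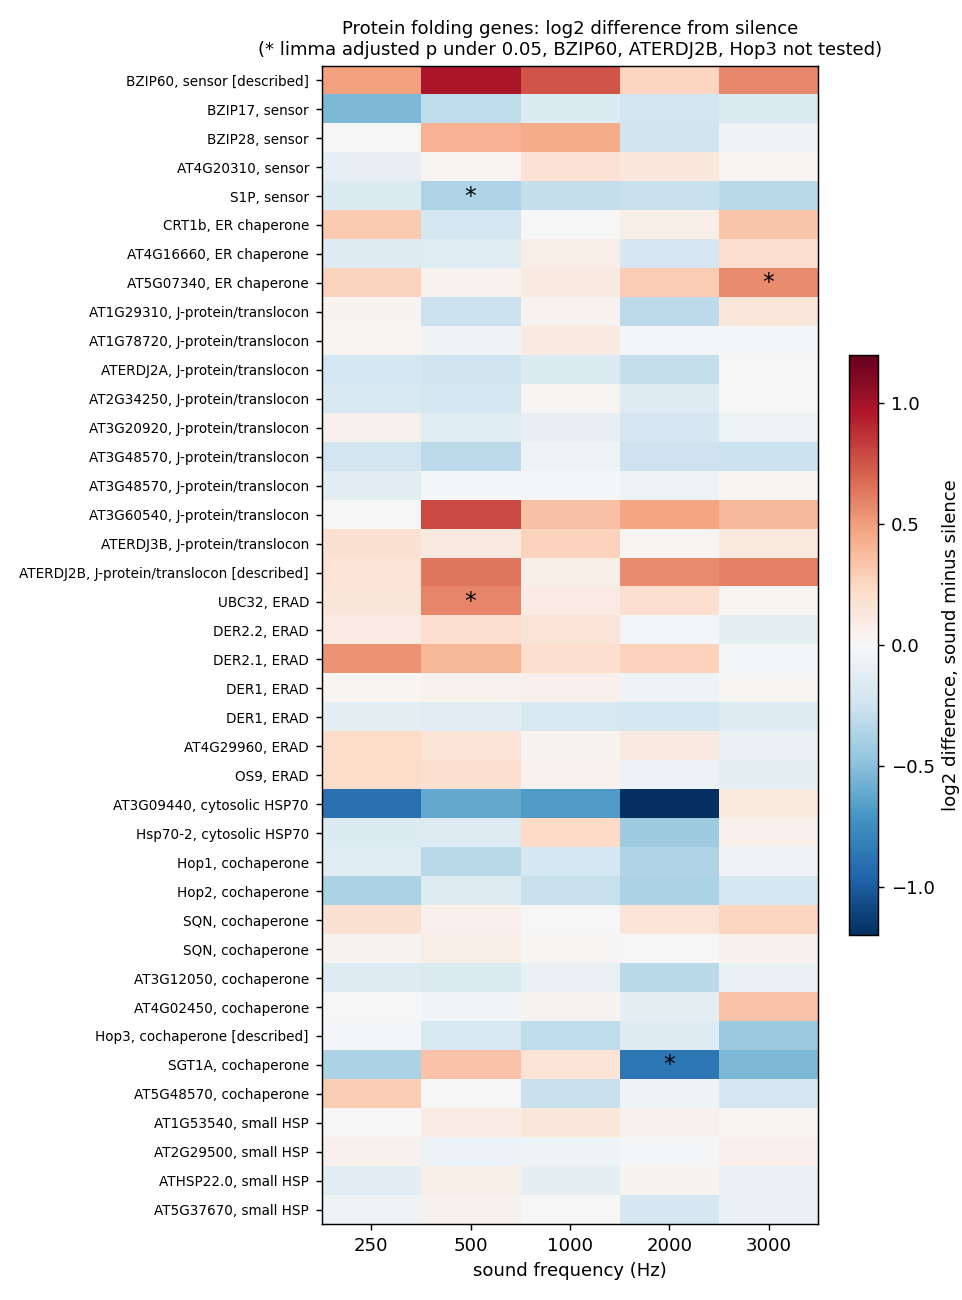
Log2 difference from silence (colour, red for higher in sound and blue for lower) of the 40 probe sets named in 7 of the protein folding lists (rows) at each sound frequency in Hz (columns), with an asterisk where limma's adjusted p was under 0.05, for the 37 tested probe sets only. The asterisks mark UBC32 and S1P at 500 Hz, SGT1A at 2000 Hz and AT5G07340 at 3000 Hz, while the rows of BZIP60 and ATERDJ2B are red and that of Hop3 is blue with no test made.

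BZIP60 belongs to the bZIP family of transcription factors. The 21 other genes taken were those on the array whose symbol or synonym says bZIP, so members known only by other names are left out. This list was added after the array's annotation had been seen, and the genes given here were picked for passing. At 500 Hz 3 of 21 rose and 0 fell, against 4.14% and 4.77% of all probe sets. BZIP53, a factor known from low-energy responses and seed maturation, read 10.78, 11.16 and 11.04 at 500 Hz, against 9.51, 10.54 and 10.10 in silence (difference 0.94 ± 0.178, limma adjusted p = 0.0111). BZIP24 rose by 0.42 (adjusted p = 0.0222) and bZIP42 by 0.26 ± 0.0732 (adjusted p = 0.0381). The bZIP42 probe set was dim, with a mean at percentile 11.8.

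The BZIP53 difference was close to the 0.98 of BZIP60, and like it had its highest array in 500 Hz replicate 2 and its lowest in control replicate 1. At 250, 1000, 2000 and 3000 Hz BZIP53 had differences of 0.73, 0.47, 0.49 and 0.47 from silence, and none passed. Among the 5 frequencies BZIP53 did not pass limma's F test (adjusted p = 0.164). Its call at 500 Hz was lost without 500 Hz replicate 2 alone (adjusted p = 0.0602), where 2 of all probe sets were called. That array had the highest 3' excess of actin, at 2.30, whose part in the BZIP53 values was not tested. BZIP24 was lost in 3 and bZIP42 in 4 of 6 omissions. At 2000 Hz BZIP34 rose by 0.80 ± 0.187 (adjusted p = 0.0343), a call lost in 4 of 6 omissions, and was the 1 of 21 that passed there (1.62% of all probe sets rose). In limma 0 of the 21 passed at 250, 1000 or 3000 Hz, with 7, 4 and 4 at an unadjusted p under 0.05 (15.8%, 15.5% and 23.7% of all probe sets). BZIP28 and BZIP24 were the 2 of 21 that differed among the frequencies, where 15.6% of all probe sets did, BZIP24 with an adjusted p of 0.0238.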

How the data were processed

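The authors deposited log2 signals from 18 Affymetrix ATH1 arrays, with 1 value per probe set and array. The submitters' processing notes name Affymetrix Expression Console 1.1, MAS5 and RMA. Which of them produced the deposited log2 signals is not given in the sources used here. Per the labels, each array holds biotin-labelled cRNA from 1 biological replicate. Of 22810 probe sets, 64 Affymetrix controls were set aside and 22746 tested. The platform's gene table gave 1 gene symbol for 13513 probe sets, of which 13436 matched a RefSeq locus, several for 503 and none for 8730.

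A single linear model over the 6 groups was fitted in limma 3.58.1 (R 4.3.3) without further scaling, and eBayes was run with a trend on intensity. Tests were two-sided, p-values were adjusted by Benjamini-Hochberg over 22746 probe sets, and an adjusted p under 0.05 was called. Errors are SD over 3 arrays or the SE of the fit. The number of arrays limits the precision, and the computation was checked on simulated data.

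BZIP60, ATERDJ2B, Hop3 and the folding lists were chosen with earlier results of these data known. Named genes were BZIP60, ATERDJ2B and Hop3, up to 3 called genes per list and comparison, fixed paralogs and pathway genes whatever their values, and the 5 genes with the highest Pearson r. Alternatives were centring on the median, leaving out the dimmest 25% of probe sets, no intensity trend, only the compared arrays, the 12 arrays with lower spikes, a replicate block, and leaving out each array. No genome build is named, so coordinates are not given.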

Additional observations from a re-analysis of the deposited data

Results flagged for a closer look

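Of the 37 protein folding probe sets tested, 5 differed between sound frequencies, a share close to the 15.6% of all probe sets. In limma's F test over the 5 frequencies, SGT1A had an adjusted p of 0.0065, BZIP28 of 0.0187, AT5G07340 of 0.0379, AT4G02450 of 0.0389 and UBC32 of 0.0408. In the direct comparison of 3000 Hz with 2000 Hz, AT4G02450 was higher at 3000 Hz (adjusted p = 0.0293). SGT1A and BZIP28 passed the F test with any 1 of the 15 sound arrays left out, whereas AT5G07340 passed in 5, AT4G02450 in 3 and UBC32 in 2 of those 15 omissions. The mean of SGT1A was highest at 500 Hz and lowest at 2000 Hz, and that of BZIP28 was highest at 1000 Hz and lowest at 2000 Hz. With 3 arrays per group, single arrays far from their group were not screened for.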

How the results depend on the processing

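The differences of BZIP60, ATERDJ2B and Hop3 from silence moved by less than the spread between replicates when arrays were centred on their medians. The number of the 37 other folding probe sets called at 500 Hz, 2 in the report, was 0 with only the compared arrays and 1 with the 12 arrays of lower spikes. At 2000 Hz it was 0 in place of 1 with only the compared arrays. At 3000 Hz, 1 became 2 with centred arrays, 3 without the dimmest 25%, 3 without an intensity trend and 0 with only the compared arrays, and at 3000 Hz against 2000 Hz 1 became 2 with only the compared arrays. Leaving out 1 array gave 0 to 4 calls at 250 Hz, 0 to 8 at 500 Hz, 0 to 4 at 1000 Hz, 0 to 7 at 2000 Hz, 0 to 3 at 3000 Hz, 0 to 1 at 3000 Hz against 2000 Hz, and 2 to 5 among the frequencies. The highest counts of 4, 8, 4, 7 and 3 against silence came without control replicate 2, where 9.56%, 17.9%, 9.57%, 11.3% and 12.2% of all probe sets were called. With only the compared arrays, 0 of all probe sets were called in limma at 500, 2000 and 3000 Hz, with 3698, 2586 and 3719 at an unadjusted p under 0.05. Calls over all probe sets also fell with some single arrays left out, but not with all. Without 2000 Hz replicate 2, where SGT1A, BZIP34 and AT4G02450 lost their calls, the calls over all probe sets rose. They went from 657 to 721 at 2000 Hz and from 720 to 910 at 3000 Hz against 2000 Hz. At 500 Hz 2026 were called with all arrays, 2 without 500 Hz replicate 2 and 182 without control replicate 1. At 2000 Hz 657 became 48 without 2000 Hz replicate 1, and at 3000 Hz 1502 became 144 without control replicate 3. The causes were not tested.

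Same-numbered arrays did not deviate together (r = -0.325 to 0.351 over 45 pairs, 12 above 0.1), so the numbers were not taken to pair the arrays. With a replicate block the counts were 0, 2, 0, 1 and 1 at 250, 500, 1000, 2000 and 3000 Hz, 1 at 3000 Hz against 2000 Hz and 6 among the frequencies. Of the 5 genes most like each, 2 for BZIP60, 2 for ATERDJ2B and 1 for Hop3 were still among the first 5 over the 15 sound arrays. The Hop3 probe set lies in the dimmest 25%, which limits how well its small differences can be read.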
